A study of Mus musculus with 16 samples.

Results

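Endothelial cells of the bone marrow (bmECs) were compared with endothelial cells of the metaphysis (mpECs) across the whole transcriptome, using the 3 bmEC and 3 mpEC libraries among the 16 RNA sequencing libraries of the series. Every gene with a mean of at least 1 FPKM (fragments per kilobase of gene, scaled to sequencing depth) over these 6 libraries was included, which gave 11422 of the 38926 genes listed. All 6 libraries came from wild-type C57BL/6 mice that were 3 weeks old and untreated. Both groups carried the same Cdh5-mTnG reporter, in which the vascular endothelial cadherin promoter Cdh5 drives a red membrane protein and a green nuclear protein in endothelial cells. Cells positive for both colours were sorted from the metaphysis, the end of the shaft next to the growth plate (mpECs), or from the diaphysis, the shaft that holds the marrow (bmECs). Total RNA was sequenced from biological triplicates, and whether a triplicate was 1 mouse or a pool was not stated in the sources used here.

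The metaphysis holds columns of capillaries that grow towards the growth plate cartilage, where cartilage is removed and new bone is laid down. The diaphysis is filled mainly by sinusoids, wide and leaky vessels that pass blood cells into the circulation. In other organs such as the liver, sinusoidal endothelium is known for taking up macromolecules from the blood and breaking them down in lysosomes, whereas growing capillaries are known for depositing and remodelling a basement membrane.

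The libraries held 11547453 to 15424284 reads, as recovered from the FPKM values and gene lengths, and 1 read on a gene of 2000 bases was worth 0.0405 to 0.0608 FPKM. Each library had 16972 to 18354 genes with a value above 0. Log2 values of libraries of the same group correlated across genes with Pearson's r of 0.981 to 0.987. The first principal component of the 500 most variable genes held 77.0% of their variance and separated the 3 bmEC from the 3 mpEC libraries, and the second held 7.97% and ran within the groups. No library stood apart from its group on the first component, and no pair was alike within sampling noise.

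The sorted cells carried endothelial markers in both groups. All 12 genes of a pan-endothelial list were above 1 FPKM, and the list took 0.389 to 0.552% of summed FPKM in mpECs and 0.468 to 0.522% in bmECs, so the groups overlapped. Single genes of the list did differ. Of the 12, 2 were called higher and 3 lower in bmECs, or 16.7% and 25.0%, beside 6.51% and 5.17% of all tested genes. When 1 library was left out, 0 to 1 were higher and 1 to 3 lower. Cdh5, the gene whose promoter drives the reporter, stood at 149, 203 and 189 FPKM in mpECs and 165, 160 and 182 FPKM in bmECs, a log2 difference of -0.08 ± 0.12 that was not called (adjusted p = 0.688). The 5 genes given as marks of the regions had groups that did not overlap, as did 41.3% of all tested genes. The study reports Cd34, Aplnr, Sele and Vcam1 as differing between these same libraries, so their values are no separate check on the regions. Cd34, a sialomucin of capillary endothelium, stood at 465, 480 and 520 FPKM in mpECs and 33.1, 70 and 46.9 FPKM in bmECs. Aplnr, the apelin receptor, stood at 291, 452 and 402 FPKM in mpECs and 75.4, 106 and 95.4 FPKM in bmECs. The adhesion molecules of leukocyte traffic ran the other way, with Vcam1 at 265, 446 and 253 FPKM in mpECs and 1149, 1226 and 944 FPKM in bmECs and Sele (E-selectin) at 44.4, 69.7 and 51.1 FPKM in mpECs and 240, 228 and 219 FPKM in bmECs. Madcam1, an adhesion molecule for integrin-bearing lymphocytes, stood at 7.75, 31.6 and 8.27 FPKM in mpECs and 91.7, 196 and 143 FPKM in bmECs, so the groups did not overlap although mpEC replicate 2 was 3.82 times the next mpEC library, and its call was lost without mpEC replicate 3, bmEC replicate 2 or bmEC replicate 3.

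Transcripts of other cells were present. The erythroid list took 7.06 to 11.6% of summed FPKM in mpECs and 9.77 to 12.1% in bmECs, and the neutrophil list took 2.98 to 6.26% of summed FPKM in mpECs and 2 to 2.85% in bmECs, higher in mpEC replicate 1 than in any other library. None of the 13 tested genes of either list was called by limma (1 erythroid and 6 neutrophil genes at an unadjusted p under 0.05, 0 of both by limma-voom, and 1 neutrophil gene with total read scaling). With replicate number as a block in the fit, 1 erythroid gene was higher and 3 neutrophil genes were lower in bmECs. Without mpEC replicate 2, 2 neutrophil genes were lower. The osteoblast and osteocyte list took 0.0626 to 0.219% of summed FPKM in mpECs and 0.00985 to 0.0125% in bmECs, with 7 of 10 tested genes lower in bmECs (4 by limma-voom on recovered reads), led by Bglap (osteocalcin) at 322, 185 and 49.2 FPKM in mpECs and 2.95, 2.91 and 0.962 FPKM in bmECs. Its most abundant uncalled gene, Ibsp, stood at 106, 40.6 and 32.8 FPKM in mpECs and 38.8, 46.8 and 38.4 FPKM in bmECs. The difference of Ibsp was -0.33 ± 0.38 (adjusted p = 0.565). In bmECs Ibsp held 38.4 to 46.8 of the list's 46.5 to 62.0 FPKM. The chondrocyte list took 0.00822 to 0.00886% of summed FPKM in mpECs and 3.12e-05 to 7.94e-05% in bmECs, with 6 of 6 lower, and Col2a1, its defining collagen, was at 0 in all bmEC libraries and at 6.85, 8.68 and 7.41 FPKM in the mpEC libraries. The adipocyte list took 0.767 to 1.12% of summed FPKM in mpECs and 2.32 to 2.81% in bmECs, with 5 of 6 higher in bmECs, while the fat hormones Lep and Retn of that list were at 0 in all 6 libraries. The other tested gene, Car3, ran the other way, at 63.3, 21.9 and 14.9 FPKM in mpECs and 8.79, 6.59 and 2.99 FPKM in bmECs. Its difference of -2.10 ± 0.52 was not called (adjusted p = 0.0218). Most of the adipocyte list's share was Fabp4, a fatty acid carrier also of capillaries. It held 3378 to 4427 of the list's 3574 to 4599 FPKM in mpECs, and 9909 to 13362 of 10328 to 13907 FPKM in bmECs. The B lymphocyte list took 0.0548 to 0.101% of summed FPKM in mpECs and 0.0412 to 0.051% in bmECs. The megakaryocyte and platelet list took 0.0201 to 0.0748% of summed FPKM in mpECs and 0.0176 to 0.101% in bmECs, the list of pericytes and marrow stroma 0.0214 to 0.0251% of summed FPKM in mpECs and 0.0121 to 0.0242% in bmECs, and that of mast cells, basophils and T lymphocytes 0.00688 to 0.0233% of summed FPKM in mpECs and 0.00346 to 0.0145% in bmECs, and in each of these the groups overlapped. With 3 libraries against 3, the exact permutation test of such a share (two-sided, 12 lists tested) cannot go below p = 0.1, the value it gave for the 6 lists whose groups did not overlap, namely the osteoblast, chondrocyte, osteoclast, adipocyte, neutrophil and B lymphocyte lists (0.2 after Benjamini-Hochberg adjustment). In RNA from sorted populations, fewer cells of a type and less RNA per cell cannot be told apart. These shares are set out in the plot of cell type lists, and the part that such cells had in the results was not tested.

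**Figure D1:**
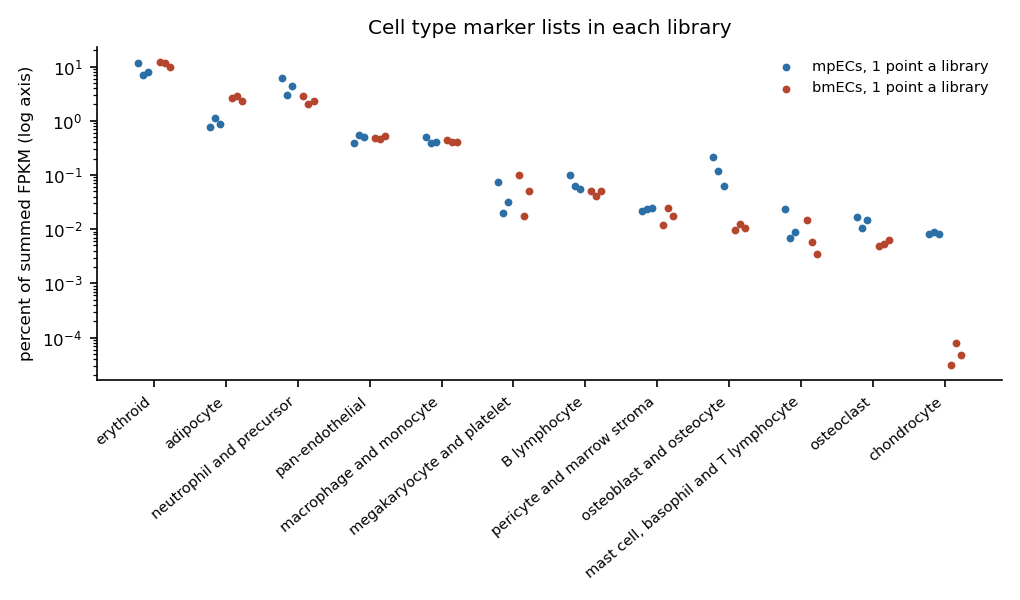
Share of each library's summed FPKM taken by 12 lists of cell type markers, in percent on a log axis, with 1 point for each of the 3 mpEC (blue) and 3 bmEC (red) libraries. The pan-endothelial points overlap between groups, the adipocyte points (mostly Fabp4) are higher in bmECs, and the osteoblast and chondrocyte points are higher in mpECs.

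Of the 11422 genes, 744 (6.51%) were higher and 591 (5.17%) lower in bmECs than in mpECs, 11.7% in all. A gene was called when limma's moderated test on log2(FPKM + 1) gave a Benjamini-Hochberg adjusted p under 0.01 and the log2 difference, bmEC minus mpEC, was over 0.5 in size. The study's methods state these thresholds after tests of mutants against controls. Its figure legend for bmECs and mpECs cites a log2 fold change of 1 instead. Differences on log2(FPKM + 1) understate the change of low genes. All 1335 called genes had groups that did not overlap, against 41.3% of all tested genes. The difference was over 1 in size for 329 higher and 316 lower genes, over 2 for 49 and 78, and over 3 for 6 and 26, so that the largest differences were more often towards mpECs. The counts fell to 412 higher and 335 lower without mpEC replicate 3 and to 468 and 377 without bmEC replicate 1, and without bmEC replicate 2 to 464 higher and 418 lower. Scaling each library to its total recovered reads lowered the median of all genes by 0.21 on the log2 scale and gave 492 higher and 1112 lower genes, so that 30.7% of calls were higher instead of 55.7%, and no gene called in both fits changed direction. Each limma p-value sets the difference between the groups against the spread within them, moderated over genes, and rests on these 6 libraries only.

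**Figure D2:**
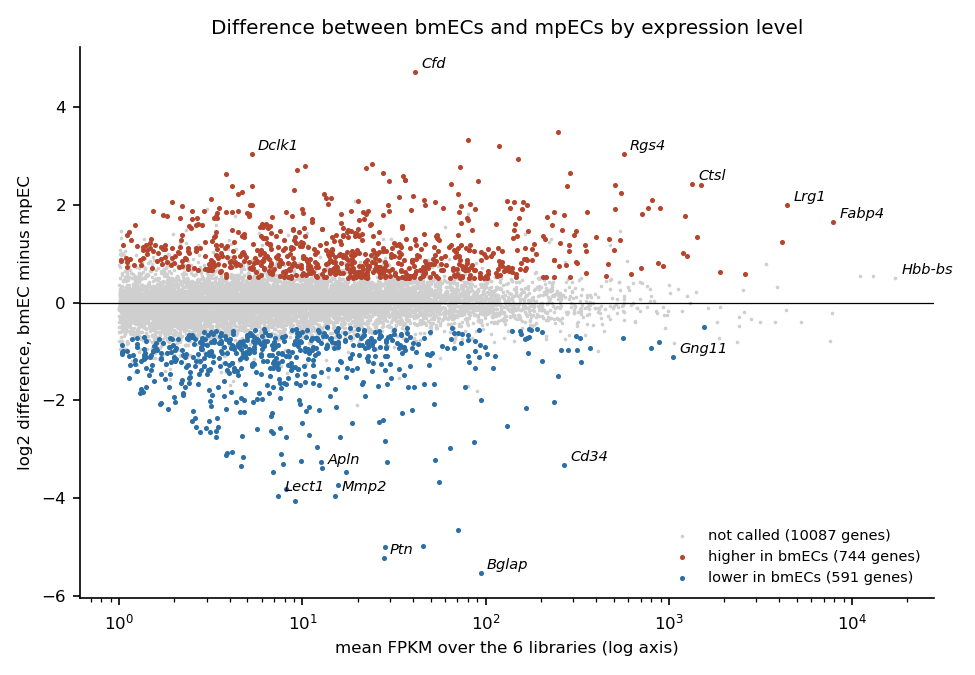
Log2 difference, bmEC minus mpEC, of each of the 11422 tested genes against its mean FPKM over the 6 libraries (log axis), 1 point a gene, with the 744 higher genes in red, the 591 lower genes in blue and the others in grey. The lowest points, Bglap and Ptn, lie below -5 and the highest, Cfd, above 4.

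Called genes were spread unevenly over the range of expression. Of the 1915 genes with a mean of 1 to 2 FPKM, 2.35% were higher and 3.45% lower in bmECs. Of the 104 genes at 500 FPKM and over, 24.0% were higher and 4.81% lower. The share of higher genes increased at every band between these, and the share of lower genes stayed between 3.45 and 6.4%. The median size of the log2 difference was 0.214 to 0.233 in each band up to 500 FPKM and 0.39 above it. The higher genes had a median level of 18.8 FPKM and the lower genes one of 7.36 FPKM, beside 7.13 FPKM for all tested genes.

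**Figure D3:**
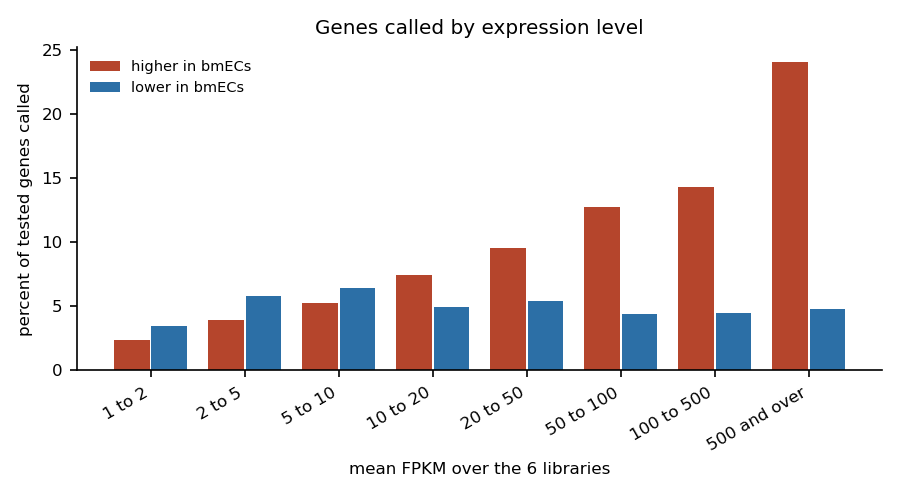
Percent of tested genes called higher (red) and lower (blue) in bmECs, by band of mean FPKM over the 6 libraries. The red bars climb from 2.35 to 24.0% with expression level and the blue bars stay between 3.45 and 6.4%.

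Among the genes furthest below their mpEC level in bmECs, Ptn (pleiotrophin, a secreted growth factor, GRCm38 chromosome 6, 36714929-36810220) stood at 46.7, 51.8 and 66.4 FPKM in mpECs and 0.541, 0.628 and 0.294 FPKM in bmECs, a log2 difference of -5.22 ± 0.15 (adjusted p = 2.58e-06). Mmp2, the gelatinase that cuts collagen of basement membranes (chromosome 8, 92827291-92853420), stood at 25.5, 31.5 and 30.5 FPKM in mpECs and 1.04, 1.01 and 0.811 FPKM in bmECs, a difference of -3.95 ± 0.12 (adjusted p = 2.58e-06). The lowest mpEC library was 74.3 times the highest bmEC library for Ptn and 24.5 times for Mmp2. Lect1 (chondromodulin, a protein of cartilage matrix) was at 14.1, 15.7 and 14.4 FPKM in mpECs and at 0 in bmEC replicates 1 and 3. Gap43, known from growing nerve endings, stood at 17.5, 12.6 and 18.2 FPKM in mpECs and 0.239, 0.208 and 0.167 FPKM in bmECs. Kcne3, an accessory subunit of potassium channels (chromosome 7, 100176502-100184869), stood at 80, 98 and 134 FPKM in mpECs and 5.73, 8.68 and 7.12 FPKM in bmECs, a difference of -3.67 ± 0.20 (adjusted p = 2.86e-05), and Lrrc55, an accessory subunit of calcium-activated potassium channels, had a difference of -4.06 ± 0.19. Cthrc1, a secreted protein with a collagen-like repeat, and Apln, the ligand of the apelin receptor, had differences of -3.46 ± 0.16 and -3.39 ± 0.14, and Apln kept at least 22.9 FPKM in every mpEC library. All of these were called under every alternative in which they were tested. Genes known from bone-forming cells were also among those furthest below, with Bglap at -5.53 ± 0.62, Col1a1 at -4.99 ± 0.40, Bglap2 at -4.97 ± 0.68, Spp1 (osteopontin) at -4.64 ± 0.43, Col1a2 at -3.72 ± 0.41 and Dmp1 at -3.47 ± 0.59. The calls of Bglap, its near-identical neighbour Bglap2 and Dmp1 were lost with recovered reads, and that of Dmp1 also without mpEC replicate 3 or any 1 bmEC library. Reads of Bglap and Bglap2 may be split between them, and 18.8% of the exon bases of Spp1 lie in a neighbour on the same strand.

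Among the genes furthest above their mpEC level, Cfd (complement factor D, also an adipocyte protease, chromosome 10, 79890853-79892655) stood at 1.23, 3.91 and 0.893 FPKM in mpECs and 67.7, 134 and 39.3 FPKM in bmECs, a difference of 4.71 ± 0.48 (adjusted p = 0.000386), with a wide spread within both groups. Rgs4, which shortens signals of G protein-coupled receptors (chromosome 1, 169741477-169747642), stood at 111, 139 and 116 FPKM in mpECs and 1166, 1079 and 790 FPKM in bmECs and differed by 3.03 ± 0.16 (adjusted p = 2.48e-05), and bmEC replicate 3 was the lowest of its group for both genes. Dclk1, a kinase with a microtubule-binding domain (chromosome 3, 55242364-55539068), stood at 0.392, 0.363 and 0.309 FPKM in mpECs and 10.1, 12.5 and 8.07 FPKM in bmECs, so it was close to the floor in mpECs. Dnase1l3, a secreted nuclease that clears DNA from blood, had a difference of 2.93 ± 0.23, and Fgf23, a hormone that lowers blood phosphate, had one of 2.79 ± 0.29. Cdkl1, a kinase related to cyclin-dependent kinases, was even within groups at 5.08, 4.98 and 5.49 FPKM in mpECs and 41.2, 45.6 and 41.7 FPKM in bmECs. Ptges, which makes prostaglandin E2, and Ptger2, a receptor for it, differed by 2.72 ± 0.12 and 1.82 ± 0.13. Rarres2 (chemerin, a chemoattractant) differed by 3.20 ± 0.22, and 33.6% of the bases in its exons also belong to a gene of the opposite strand. Each of these genes was called under every alternative in which it was tested.

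**Figure D4:**
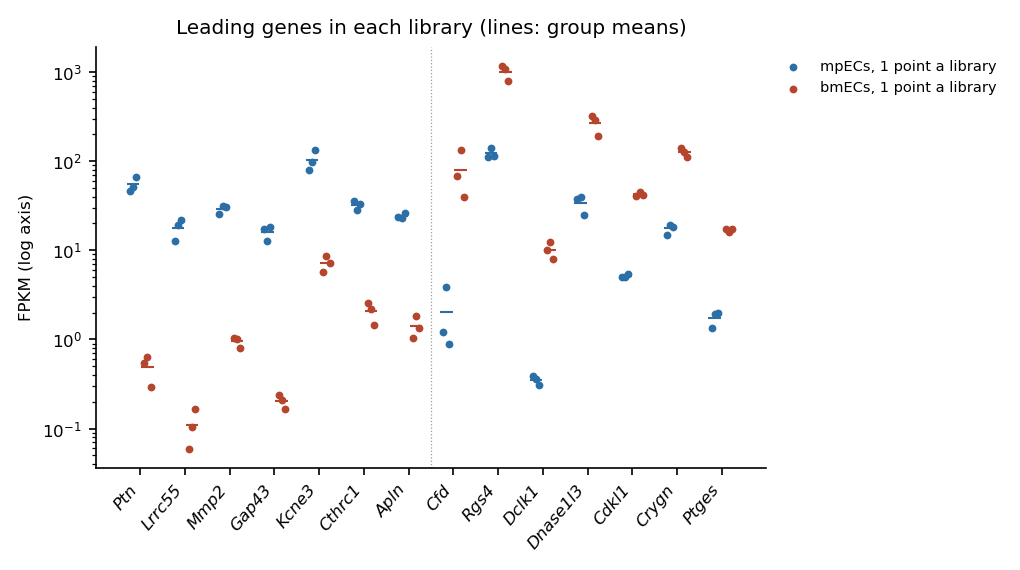
FPKM (log axis) of 14 leading genes in each of the 3 mpEC (blue) and 3 bmEC (red) libraries, with lines at the group means. The 7 genes left of the dotted line are higher in all mpEC libraries and the 7 genes right of it in all bmEC libraries.

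RefSeq promoters, 250 bases before to 50 after a transcript start on GRCm38.p6, were matched to 8052 of the tested genes. The box TATAAA, read on both strands, was in 7.25% of the 10229 promoters of these genes, in 9.13% of promoters of higher genes and 9.42% of those of lower genes. In the 36 promoters of genes higher by over 2 it was in 27.8%, and in the 55 promoters of genes lower by over 2 in 12.7%. The median number of CpG dinucleotides was 20 in all promoters, 6 where genes were higher by over 2 and 11 where they were lower by over 2. These are descriptions of letters in a window, without a test, and some genes have several promoters. Below are 2 promoters of genes far above and 2 of genes far below their mpEC level, shown for their contrast in these letters, with TATAAA and CCAAT (or its reverse ATTGG) in capitals. The Rgs4 promoter (chr1:169747593-169747892, minus strand) has TATAAA 31 bases and ATTGG 57 bases before the start and 13 CpG, and the Cfd promoter (chr10:79890603-79890902, plus strand) has neither box and 2 CpG. The Ptn promoter (chr6:36810130-36810429, minus strand) has CCAAT 81 bases before the start and 6 CpG, and the Apln promoter (chrX:48034804-48035103, minus strand) has neither box and 15 CpG.
Rgs4: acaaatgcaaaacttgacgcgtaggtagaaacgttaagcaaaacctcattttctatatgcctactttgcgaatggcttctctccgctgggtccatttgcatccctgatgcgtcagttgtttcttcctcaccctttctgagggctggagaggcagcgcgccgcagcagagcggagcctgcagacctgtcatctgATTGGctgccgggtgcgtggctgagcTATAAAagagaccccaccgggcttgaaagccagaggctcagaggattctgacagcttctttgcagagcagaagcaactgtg
Cfd: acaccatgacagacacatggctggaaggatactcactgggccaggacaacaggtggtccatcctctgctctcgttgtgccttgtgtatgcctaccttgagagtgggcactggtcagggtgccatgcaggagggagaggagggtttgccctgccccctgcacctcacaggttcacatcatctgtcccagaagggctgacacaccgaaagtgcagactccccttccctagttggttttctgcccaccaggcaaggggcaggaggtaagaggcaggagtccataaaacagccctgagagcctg
Ptn: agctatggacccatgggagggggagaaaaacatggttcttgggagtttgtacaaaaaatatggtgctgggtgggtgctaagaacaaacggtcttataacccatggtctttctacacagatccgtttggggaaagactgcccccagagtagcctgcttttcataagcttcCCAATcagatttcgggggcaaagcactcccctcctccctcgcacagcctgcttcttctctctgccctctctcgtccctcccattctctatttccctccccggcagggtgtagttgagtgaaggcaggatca
Apln: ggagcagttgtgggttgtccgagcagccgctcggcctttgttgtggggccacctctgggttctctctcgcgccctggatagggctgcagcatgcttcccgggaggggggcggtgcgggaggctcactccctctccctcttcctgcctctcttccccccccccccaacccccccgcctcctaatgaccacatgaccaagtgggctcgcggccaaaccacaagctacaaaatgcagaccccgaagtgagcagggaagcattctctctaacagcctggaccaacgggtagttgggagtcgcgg

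Genes were then grouped into 87 lists and name families with at least 5 tested members. The median log2 difference was over 0.5 in 3 of them and under -0.5 in 10, beside -0.0007 for all tested genes. Lists were described by counts and medians without a test, and the counts are to be read against 6.51% of all tested genes higher and 5.17% lower.

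**Figure D5:**
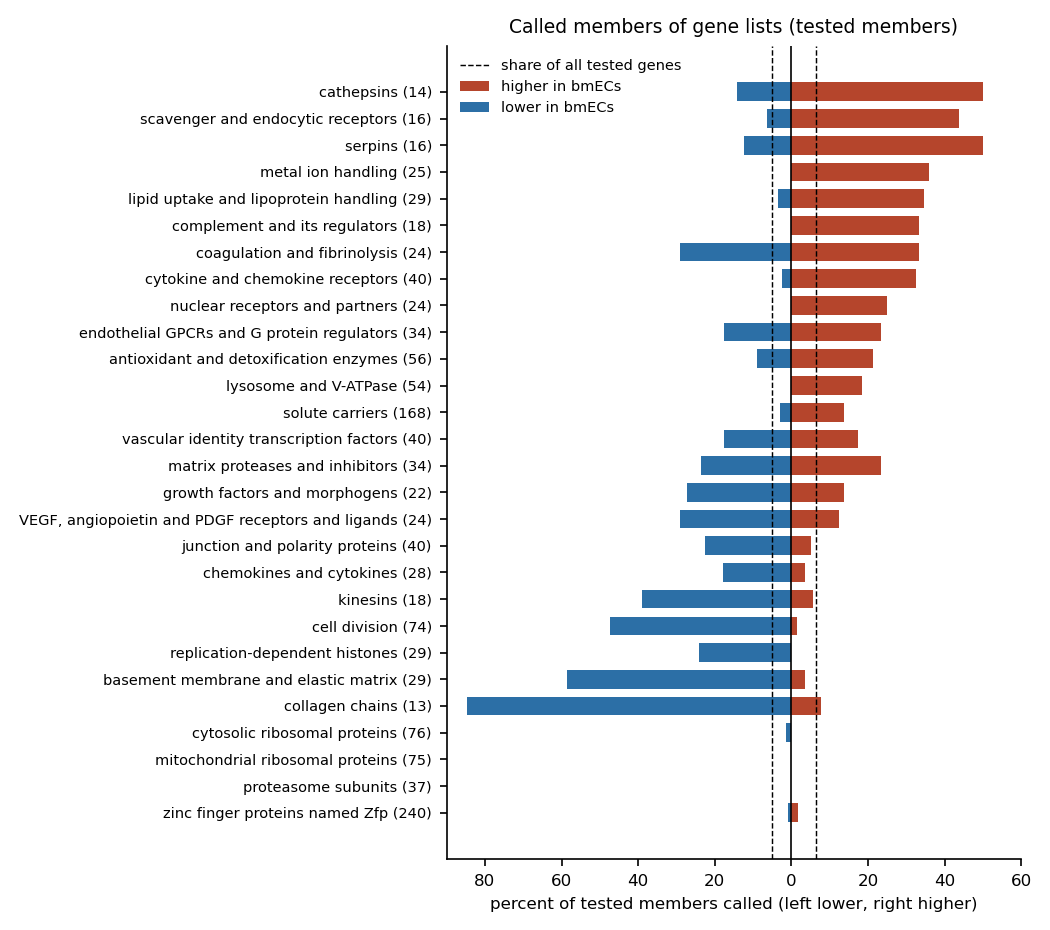
Percent of the tested members of 28 gene lists that were called higher (red, to the right) or lower (blue, to the left) in bmECs, with the number of tested members in brackets and dashed lines at the shares of all tested genes, 6.51% higher and 5.17% lower. Collagen chains, basement membrane and cell division reach furthest left, and cathepsins, serpins and scavenger receptors furthest right.

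Several uptake receptors were higher in bmECs. Of 16 scavenger and endocytic receptors, 7 were higher and 1 lower (0 lower without any 1 of the 6 libraries), with a median difference of 1.14. Mrc1, the mannose receptor, stood at 97.1, 114 and 85.1 FPKM in mpECs and 351, 341 and 300 FPKM in bmECs. Cd36, a receptor for fatty acids and oxidised lipoproteins, stood at 192, 253 and 178 FPKM in mpECs and 847, 1022 and 549 FPKM in bmECs, with the lowest bmEC library of Cd36 at 2.17 times the highest mpEC library. Msr1, a scavenger receptor for modified lipoproteins, and Stab2 (stabilin-2, the hyaluronan receptor of sinusoids) differed by 1.91 ± 0.21 and 1.73 ± 0.16. Macrophages share Mrc1 and Msr1 as markers, and the macrophage and monocyte list took 0.384 to 0.499% of summed FPKM in mpECs and 0.399 to 0.44% in bmECs, with 1 of 13 genes, Vcam1, called.

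Some enzymes of the lysosome, which act after uptake, were higher too. Of 54 tested genes of the lysosome and its proton pump, 10 were higher and none lower by limma (4 at an unadjusted p under 0.05, 0 by limma-voom, 3 with total read scaling, and 6 higher without mpEC replicate 3 or bmEC replicate 1), with a median of 0.22. They included Tpp1, a peptidase, and Gm2a, the activator of ganglioside breakdown, with differences of 1.06 ± 0.10 and 1.40 ± 0.16. Of 14 cathepsins, 7 were higher. Ctsl (cathepsin L) stood at 346, 498 and 420 FPKM in mpECs and 2276, 2297 and 2155 FPKM in bmECs, a difference of 2.42 ± 0.13 (adjusted p = 3.23e-05), with 26.8% of the bases in its exons also in a gene of the opposite strand, and Ctsf, Ctso and Ctsh differed by 1.12 ± 0.09, 0.96 ± 0.11 and 0.83 ± 0.11. Lgmn, the asparagine endopeptidase of lysosomes, was at 830, 822 and 761 FPKM in mpECs and 2284, 1921 and 1966 FPKM in bmECs. The 2 lower cathepsins were Ctsk, the collagenase known from osteoclasts, at -2.63 ± 0.21, and Ctsw at -1.46 ± 0.24, whose call was lost in 6 of the alternatives (1 lower without any 1 mpEC library or bmEC replicate 1). The osteoclast list took 0.0104 to 0.0168% of summed FPKM in mpECs and 0.00487 to 0.00635% in bmECs. None of the 16 tested proton pump genes named Atp6 was called by limma (6 at an unadjusted p under 0.05, 0 by limma-voom).

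Lipid handling was higher in bmECs for 10 of 29 tested genes and lower for 1 (0 lower without any 1 of the 6 libraries, and 4 lower with total read scaling), with a median of 0.24. Fabp4, the fatty acid carrier of fat cells and capillaries (chromosome 3, 10204088-10208576), was among the most abundant transcripts at 3378, 4427 and 3627 FPKM in mpECs and 12593, 13362 and 9909 FPKM in bmECs, a difference of 1.65 ± 0.16 (adjusted p = 0.000348). The lipases Lipg (endothelial lipase) and Lpl (lipoprotein lipase) differed by 2.21 ± 0.22 (adjusted p = 0.000383) and 1.99 ± 0.14 (adjusted p = 7.57e-05). Apoe, a ligand for lipoprotein receptors, stood at 486, 591 and 596 FPKM in mpECs and 1948, 1709 and 2020 FPKM in bmECs. Pparg, the nuclear receptor that controls fatty acid storage genes, stood at 112, 126 and 107 FPKM in mpECs and 393, 333 and 312 FPKM in bmECs. Gpihbp1, which holds lipoprotein lipase on capillary endothelium, was abundant in both groups, at 673, 878 and 930 FPKM in mpECs and 793, 971 and 756 FPKM in bmECs, a difference of 0.03 ± 0.15 that was not called (adjusted p = 0.921). Pparg, Lpl and Fabp4 are also on the adipocyte list, whose fat cell protein Adipoq stood at 8.97, 6.17 and 4.1 FPKM in mpECs and 16.5, 22.1 and 19.1 FPKM in bmECs, a call lost without mpEC replicate 2, bmEC replicate 2 or bmEC replicate 3.

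Iron and copper handling was higher for 9 of 25 tested genes (4 higher without mpEC replicate 3 or bmEC replicate 2, 5 higher without bmEC replicate 1), and none lower by limma (1 at an unadjusted p under 0.05, 0 by limma-voom), with a median of 0.30. Trf (transferrin, the iron carrier) stood at 16.3, 18.4 and 15.9 FPKM in mpECs and 78.9, 77.3 and 70 FPKM in bmECs, and 63.5% of the bases in its exons also lie in a neighbour on the same strand. Steap3, which reduces iron in endosomes, and Slc31a1, the copper importer, differed by 1.44 ± 0.11 and 0.93 ± 0.11. Among 56 antioxidant and detoxification enzymes, 12 were higher and 5 lower (2 lower without bmEC replicate 1 or 2, 3 lower without any 1 mpEC library or bmEC replicate 3). Cyp4b1, a cytochrome P450 of fatty acids, stood at 154, 214 and 119 FPKM in mpECs and 961, 926 and 657 FPKM in bmECs. Adh1 (alcohol dehydrogenase) and Fmo1 (a flavin monooxygenase) differed by 2.48 ± 0.14 (adjusted p = 3.83e-05) and 2.42 ± 0.14 (adjusted p = 3.87e-05), and the transcript of the selenium carrier Sepp1 was at 2345, 2780 and 2254 FPKM in mpECs and 6538, 6190 and 4722 FPKM in bmECs. The lower enzymes included Gpx8 and Prdx4, peroxidases of the endoplasmic reticulum, at -1.64 ± 0.15 and -0.84 ± 0.09.

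Among cytokines, receptors were called mainly as higher and ligands mainly as lower. Of 40 receptors, 13 were higher and 1, the scavenging chemokine receptor Ackr3, lower, a call lost without mpEC replicate 2 or 3 or any 1 bmEC library. The median over all of them was only 0.09. Il6st (gp130, shared by receptors of the interleukin-6 family) stood at 52, 80.4 and 66.2 FPKM in mpECs and 240, 238 and 268 FPKM in bmECs, a difference of 1.91 ± 0.15 (adjusted p = 0.000124). Lepr, the leptin receptor, which also marks marrow stroma, stood at 2.74, 2.9 and 3.2 FPKM in mpECs and 11.6, 14.8 and 13.5 FPKM in bmECs. Osmr and Lifr, partners of gp130, differed by 1.40 ± 0.11 and 1.14 ± 0.12, while Osm, a ligand for them, was lower in bmECs at -1.37 ± 0.15. Darc, the chemokine receptor of venules and red cells, stood at 506, 533 and 392 FPKM in mpECs and 3006, 2590 and 1990 FPKM in bmECs, and 25.7% of the bases in its exons also lie in a neighbour on that strand. Of 28 ligands, 5 were lower and 1 higher, Cxcl16 at 1.29 ± 0.14 (3 lower without mpEC replicate 1 or 3 or bmEC replicate 3, and 2 higher without mpEC replicate 1). The lower ones included Il1b (interleukin-1 beta) at -1.51 ± 0.22 and Ccl12 at -1.65 ± 0.16. Cd40, a receptor of B cell help also found on endothelium, was lower at -2.45 ± 0.13 (adjusted p = 2.48e-05).

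Blood-facing proteases and their inhibitors were called in both directions. Of 24 genes of coagulation and fibrinolysis, 8 were higher and 7 lower, so the list's median of -0.47 hides both directions. F8 (factor VIII) stood at 28.6, 33.6 and 25.7 FPKM in mpECs and 119, 129 and 104 FPKM in bmECs, a difference of 1.97 ± 0.12 (adjusted p = 4.61e-05). The anticoagulant genes Tfpi (tissue factor pathway inhibitor), Thbd (thrombomodulin) and Pros1 (protein S) differed by 1.93 ± 0.12 (adjusted p = 4.61e-05), 1.30 ± 0.11 (adjusted p = 0.000142) and 1.19 ± 0.10 (adjusted p = 0.000143). On the other side, Plat (tissue plasminogen activator) stood at 46.1, 49.8 and 63.1 FPKM in mpECs and 3.98, 5.81 and 4.23 FPKM in bmECs, a difference of -3.25 ± 0.16 (adjusted p = 2e-05), and S100a10 and Anxa2, which together bind plasminogen at the cell surface, differed by -1.33 ± 0.13 and -0.97 ± 0.08. Of 18 complement genes, 6 were higher and none lower by limma (3 at an unadjusted p under 0.05, 0 by limma-voom, 1 with total read scaling, and 3 higher without mpEC replicate 3 or bmEC replicate 2), with Cd55, which dissolves the convertases, at 1.38 ± 0.10. Of 16 serpins, 8 were higher (5 higher without mpEC replicate 3 or bmEC replicate 2), led by Serpina3f at 2.03 ± 0.26 and Serpinb6b at 2.00 ± 0.16. The 2 lower serpins were Serpinf1 (a secreted inhibitor of vessel growth) at -2.44 ± 0.23 and Serpinh1 (the collagen chaperone) at -0.93 ± 0.10.

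Transporters and receptors differed in both directions. Of 168 solute carriers, 23 were higher and 5 lower (14 higher without mpEC replicate 3, 15 higher without bmEC replicate 1, and 2 lower without mpEC replicate 3). Slc16a1, a carrier of lactate and other monocarboxylates, was even within groups at 35.2, 36.5 and 34.1 FPKM in mpECs and 106, 117 and 110 FPKM in bmECs, and Slco2b1, an organic anion carrier, differed by 2.00 ± 0.18. Kcnj8 and Abcc9, which together form an ATP-sensitive potassium channel, were both higher, with Kcnj8 at 131, 199 and 169 FPKM in mpECs and 465, 458 and 440 FPKM in bmECs. Abcc9 stood at 47.1, 66.3 and 54.4 FPKM in mpECs and 167, 166 and 179 FPKM in bmECs. Piezo2, a channel opened by stretch, was lower, at 4.32, 5.14 and 5.51 FPKM in mpECs and 0.0751, 0.225 and 0.204 FPKM in bmECs. Of 34 G protein-coupled receptors and regulators, 8 were higher (4 higher without mpEC replicate 3 or bmEC replicate 1 or 3, 5 higher without bmEC replicate 2) and 6 lower. Gpr126, an adhesion receptor for collagen IV, differed by 2.58 ± 0.15 (adjusted p = 3.24e-05), and Gpr182, an atypical receptor of sinusoidal endothelium, by 1.36 ± 0.14. Ednrb, the endothelin B receptor, and Ramp3, a partner of the adrenomedullin receptor, were lower, with Ednrb at 97, 85 and 104 FPKM in mpECs and 7.34, 15.9 and 6.76 FPKM in bmECs. Ramp3 stood at 105, 104 and 130 FPKM in mpECs and 9.95, 19.2 and 12.4 FPKM in bmECs. The ligand Edn1 (endothelin-1) was lower too, at -2.23 ± 0.24 (adjusted p = 0.000502).

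Many basement membrane genes were lower in bmECs, while matrix proteases and their inhibitors were called in both directions. Of 29 genes of basement membrane and elastic matrix, 17 were lower in bmECs, and the median was -1.04. Col18a1, the collagen from which endostatin is cut, stood at 12.2, 14.3 and 17.2 FPKM in mpECs and 1.07, 0.648 and 0.714 FPKM in bmECs, a difference of -3.10 ± 0.15 (adjusted p = 2.18e-05). Nid2 (nidogen-2) stood at 18.4, 22.7 and 24.6 FPKM in mpECs and 1.07, 2.62 and 2.42 FPKM in bmECs, while its relative Nid1 was the 1 gene of the list that was higher, at 0.51 ± 0.10, a call lost in 11 alternatives, among them without any 1 of the 6 libraries. Chains of the vascular basement membrane were lower, with Lama4 and Lamb1 (laminins) at -2.33 ± 0.18 and -2.57 ± 0.18, and Col4a1 and Col4a2 (collagen IV) at -2.06 ± 0.17 and -1.66 ± 0.15. Mfap2, a microfibril protein, differed by -2.75 ± 0.14 (adjusted p = 2.48e-05). Sparc, a collagen-binding glycoprotein, was abundant in both groups, at 2769, 2835 and 2611 FPKM in mpECs and 2506, 2397 and 2249 FPKM in bmECs, and was not called (adjusted p = 0.185).

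Of 13 collagen chains, 11 were lower, with a median of -2.06, and 1 was higher, Col6a3 at 2.78, 3.49 and 2.38 FPKM in mpECs and 10.7, 10.3 and 9.33 FPKM in bmECs. Col1a1 and Col1a2 (collagen I, the collagen of bone) were lower by far, with Col1a1 at 88.5, 55.3 and 23.9 FPKM in mpECs and 0.667, 0.628 and 0.453 FPKM in bmECs, and the order of the mpEC libraries was the one seen for Bglap. Col2a1 and Col10a1 are on the chondrocyte list, and Col1a1 and Col1a2 on the osteoblast list, which took 0.0626 to 0.219% of summed FPKM in mpECs and 0.00985 to 0.0125% in bmECs. Among 34 matrix proteases and inhibitors, 8 were higher and 8 lower. Mmp13, the collagenase of growth plate and bone, was lower at -3.26 ± 0.33. Adamts5, which cuts aggrecan and versican, was higher, at 43.5, 49.2 and 56.4 FPKM in mpECs and 207, 204 and 223 FPKM in bmECs. Timp3, an inhibitor of such proteases, was higher at 1.05 ± 0.15.

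Many genes of cell division were lower in bmECs. Of 74 tested, 35 were lower and 1 higher, with a median of -0.65, and fewer were lower when a library was left out (16 lower without bmEC replicate 2, 18 lower without mpEC replicate 3, 20 lower without bmEC replicate 1, 21 lower without bmEC replicate 3). The 1 higher gene was Cdkn1c, a cyclin-dependent kinase inhibitor, at 15.7, 19 and 14.6 FPKM in mpECs and 25.9, 32 and 27.8 FPKM in bmECs, a difference of 0.76 ± 0.12, a call lost without mpEC replicate 1 or 3 or bmEC replicate 2 or 3. Kif23, a motor of cell separation, stood at 17.5, 14.8 and 17.1 FPKM in mpECs and 7.24, 5.1 and 6.38 FPKM in bmECs. Ttk, a kinase of the spindle checkpoint, stood at 8.89, 7.42 and 7.41 FPKM in mpECs and 2.72, 2.58 and 2.81 FPKM in bmECs. Mki67, the usual mark of cycling cells, differed by -0.76 ± 0.14 (adjusted p = 0.00707), a call lost without mpEC replicate 1 or 3 or any 1 bmEC library. Of 29 replication-dependent histones, 7 were lower and none higher by limma (0 at an unadjusted p under 0.05, 0 by limma-voom, and 2 lower without bmEC replicate 1 or 3, 4 lower without bmEC replicate 2). Of 18 kinesins, 7 were lower (3 lower without bmEC replicate 2 or 3, 4 lower without mpEC replicate 2 or bmEC replicate 1). Dividing blood cell precursors carry the same genes, and the neutrophil and precursor list took 2.98 to 6.26% of summed FPKM in mpECs and 2 to 2.85% in bmECs, with all 13 differences below 0 and none called by limma (6 at an unadjusted p under 0.05, 0 by limma-voom, 1 with total read scaling, 2 without mpEC replicate 2, and 3 with replicate number as a block in the fit).

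Ligands and receptors of vessel growth were called in both directions. Of 24 tested genes of a list of VEGF, angiopoietin, PDGF, apelin, endothelin and adrenomedullin genes, 7 were lower, Edn1 among them, and 3 higher (1 higher without mpEC replicate 3 or bmEC replicate 2). Vegfc and Pgf (placental growth factor) differed by -2.14 ± 0.19 (adjusted p = 0.000197) and -2.03 ± 0.19 (adjusted p = 0.000267). The receptor Flt4 (VEGF receptor 3), which binds Vegfc, was higher, at 69.7, 84.1 and 68.8 FPKM in mpECs and 160, 154 and 167 FPKM in bmECs. The other higher genes were the receptor Kdr (VEGF receptor 2) at 0.67 ± 0.12, a call lost without mpEC replicate 3 or any 1 bmEC library, and Angptl4, an angiopoietin-like secreted protein that inhibits lipoprotein lipase, at 68.5, 91.5 and 61.3 FPKM in mpECs and 258, 230 and 148 FPKM in bmECs, a difference of 1.49 ± 0.22 (adjusted p = 0.00236) whose call was lost without mpEC replicate 3 or bmEC replicate 2. Of 22 other growth factors and morphogens, 6 were lower, among them Dhh (desert hedgehog) at -2.02 ± 0.13 (adjusted p = 6.46e-05) and Hbegf at -1.86 ± 0.17 (adjusted p = 0.000268), and 3 were higher, among them Hgf (hepatocyte growth factor) at 1.32, 1.13 and 1.42 FPKM in mpECs and 4.72, 3.61 and 3.64 FPKM in bmECs. Igfbp3, a carrier that withholds insulin-like growth factors, was lower, at 40.2, 52.7 and 57.2 FPKM in mpECs and 4.31, 10.5 and 4.99 FPKM in bmECs.

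Of 40 junction and polarity genes, 9 were lower and 2 higher (5 lower without mpEC replicate 3, and 0 higher without mpEC replicate 3, 1 higher without mpEC replicate 2 or bmEC replicate 1 or 2). The gap junction genes Gja5 (connexin 40) and Gja4 (connexin 37), known from arterial endothelium, led the lower ones, with Gja5 at 46.5, 45.7 and 49 FPKM in mpECs and 7.41, 9.85 and 7.43 FPKM in bmECs. Gja4 stood at 60.3, 61.9 and 74.6 FPKM in mpECs and 11.5, 16.3 and 13.1 FPKM in bmECs. Efnb2 (ephrin B2), of the axon guidance list, differed by -1.95 ± 0.16 (adjusted p = 0.000141) and Hey1 (a Notch target) by -1.73 ± 0.21 (adjusted p = 0.000885). Of 40 transcription factors linked with vessel identity, 7 were higher (4 higher without mpEC replicate 3 or bmEC replicate 1) and 7 lower. Gata3 and Maf were higher, with Gata3 at 2.6, 2.75 and 2.38 FPKM in mpECs and 11.7, 9.86 and 11.4 FPKM in bmECs. Meox1 and Mecom were lower, with Meox1 at 15.2, 18.5 and 19.6 FPKM in mpECs and 1.75, 4.41 and 3.36 FPKM in bmECs. Nr2f2, the factor of venous identity, differed by 0.78 ± 0.13 (adjusted p = 0.00362), a call lost without mpEC replicate 1 or 3 or bmEC replicate 1 or 2. Of 24 nuclear receptors, 6 were higher and none lower by limma (1 at an unadjusted p under 0.05, 0 by limma-voom), including Nr1d1 (a repressor of the body clock) at 1.87 ± 0.12 (adjusted p = 4.64e-05) and Nr1h3 (the oxysterol receptor) at 1.37 ± 0.12 (adjusted p = 0.000193).

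Proteins of cell contact and guidance were called in both directions. Of 28 genes known from axon guidance, 4 were higher and 5 lower (3 lower without mpEC replicate 2 or 3 or bmEC replicate 1 or 2). Sema3a, a secreted repellent semaphorin, stood at 18.6, 18.2 and 16.2 FPKM in mpECs and 56.6, 49.2 and 52 FPKM in bmECs, a difference of 1.52 ± 0.09 (adjusted p = 4.28e-05). Efna5, a membrane-bound ephrin, was higher at 1.34 ± 0.12, while the netrin receptor Unc5b, known from the tips of growing vessels, was lower at -1.58 ± 0.14. Of 24 tetraspanins, membrane proteins that organise receptors into domains, 5 were higher and 2 lower (1 lower without mpEC replicate 3). Tspan7 stood at 86.7, 97.1 and 83.3 FPKM in mpECs and 505, 473 and 424 FPKM in bmECs, a difference of 2.38 ± 0.10 (adjusted p = 1.22e-05), and Tspan18 was lower at -1.05 ± 0.11. Cd81, a tetraspanin more abundant than any of the called ones, differed by -0.01 ± 0.11 and was not called (adjusted p = 0.968). Of 32 integrins and their adaptors, 1 was higher, the collagen receptor chain Itga1 at 18.1, 22.7 and 19.2 FPKM in mpECs and 47.1, 51.5 and 42.8 FPKM in bmECs, and 2 lower, Itga2 and Itgb1, at -0.94 ± 0.13 and -0.63 ± 0.10 (0 lower without mpEC replicate 3, 1 lower without mpEC replicate 2 or bmEC replicate 1, 4 lower without bmEC replicate 2). Leaving out mpEC replicate 3 ended both calls. Of 23 cadherins and protocadherins, 3 were lower (1 lower without mpEC replicate 3), among them Cdh13, a cadherin held by a lipid anchor, at 24, 23.3 and 27.5 FPKM in mpECs and 3.41, 9.78 and 3.33 FPKM in bmECs (a call lost without mpEC replicate 3 or bmEC replicate 1 or 3), and 1 was higher, Cdh4 at 1.20 ± 0.12.

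Small calcium-binding proteins and the cytoskeleton were called mainly as lower in bmECs. Of 9 S100 proteins, 3 were lower (5 lower without mpEC replicate 2) and none higher by limma (1 at an unadjusted p under 0.05, 0 by limma-voom, and 1 higher without bmEC replicate 3), with a median of -0.81. With replicate number as a block in the fit, 5 S100 genes were lower and 1 higher. S100a6 stood at 158, 128 and 166 FPKM in mpECs and 39, 46.3 and 28.1 FPKM in bmECs and S100a11 differed by -0.97 ± 0.11, whereas S100a8, which is abundant in neutrophils, differed by -0.78 ± 0.30 and was not called (adjusted p = 0.1). Of 8 annexins, which bind membranes when calcium rises, 3 were lower and 1 higher, with Anxa3 at 272, 273 and 306 FPKM in mpECs and 124, 130 and 116 FPKM in bmECs and Anxa1, a partner in ending inflammation, at -1.21 ± 0.21, a call lost without mpEC replicate 3 or bmEC replicate 2 or 3. Of 13 tubulins 3 were lower and none higher by limma (2 at an unadjusted p under 0.05, 0 by limma-voom), with Tubb6 at 138, 125 and 150 FPKM in mpECs and 67.8, 65.2 and 63.7 FPKM in bmECs and Tubb2a at -1.10 ± 0.13. Of 16 myosins 2 were lower (1 lower without mpEC replicate 2 or 3 or bmEC replicate 1 or 2) and none higher by limma (1 at an unadjusted p under 0.05, 0 by limma-voom), with Myo1e, a motor linking membrane and actin, at -1.35 ± 0.16.

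Signalling pathways held called genes in both directions. Of 33 genes of the BMP and TGF-beta pathway, 7 were higher and 3 lower (5 lower without mpEC replicate 1), with a median of 0.07. Within it Lrg1, a secreted protein that modifies TGF-beta signalling, stood at 1755, 1805 and 1728 FPKM in mpECs and 7655, 6648 and 6911 FPKM in bmECs. Fstl1, a secreted antagonist, stood at 157, 142 and 159 FPKM in mpECs and 18.9, 21.7 and 20.1 FPKM in bmECs. In the Notch pathway 3 of 28 were higher (1 higher without mpEC replicate 3 or bmEC replicate 1 or 2) and 3 lower (1 lower without mpEC replicate 2 or 3 or bmEC replicate 1 or 2), with Psen2, a catalytic subunit of gamma-secretase, at 7.56, 10.1 and 8.36 FPKM in mpECs and 32.9, 33.1 and 35.6 FPKM in bmECs. The immediate early and NF-kappaB list held 6 higher genes of 53 (3 higher without bmEC replicate 1, 12 higher without bmEC replicate 3). Its most abundant gene that was not called, the immediate early factor Fos, stood at 208, 202 and 339 FPKM in mpECs and 995, 1249 and 242 FPKM in bmECs, so that bmEC replicate 3 lay with the mpEC libraries and the groups overlapped (adjusted p = 0.0989). Among 58 genes of the interferon response and antigen presentation, 3 were higher and none lower by limma (6 at an unadjusted p under 0.05, 0 by limma-voom, 3 with total read scaling, and 1 higher without mpEC replicate 3 or bmEC replicate 2, 6 higher without mpEC replicate 2, and 1 lower without bmEC replicate 2). With replicate number as a block in the fit, 12 were higher and 3 lower. Irf8, an interferon regulatory factor, stood at 13, 14.6 and 12.2 FPKM in mpECs and 35.2, 35.4 and 35.6 FPKM in bmECs.

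Few genes of the machinery that every cell uses were called. None of 75 mitochondrial ribosomal proteins, 37 proteasome subunits, 32 aminoacyl-tRNA synthetases and 14 cytochrome c oxidase subunits was called by limma, with medians of -0.05, -0.05, -0.03 and -0.03. At an unadjusted p under 0.05 these families held 10, 8, 4 and 0 genes, and 0 of any by limma-voom. With libraries scaled to total reads, 3 mitochondrial ribosomal proteins and 1 proteasome subunit were lower. Of 76 cytosolic ribosomal proteins 1 was lower, Rpl32 at -0.50 ± 0.10, a call lost without any 1 of the 6 libraries, and the median was -0.20. This family depended on scaling, as 20 of its members were lower when libraries were scaled to total reads and 8 after quantile normalization. Of 240 zinc finger genes named Zfp, 4 were higher and 2 lower (2 higher without mpEC replicate 1 or 3 or bmEC replicate 2, and 1 lower without any 1 of the 6 libraries), or 1.67% and 0.833% of the family. Both shares were below those of all tested genes.

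Some named genes overlap a neighbour on the genome, and the setting for strand in the counting was not given in the sources used here. The bases of exons that also belong to a gene of the opposite strand made up 20.4% for Cdkl1, 30.7% for Cdkn1c, 18.3% for Cxcl16, 25.2% for Dhh, 15.4% for Sepp1 and 21.3% for Timp3, so that the values of these genes are uncertain.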

How the data were processed

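RNA sequencing of sorted endothelial cells was taken from 3 mpEC and 3 bmEC libraries among the 16 of the series, and the other libraries were not analysed here. Per the labels and the study's methods, the authors aligned paired-end reads from a stranded total RNA kit to mm10 (GRCm38) using TopHat, obtained counts per gene by HTSeq 0.6.1 and deposited FPKM values, 1 column a library. The step from counts to FPKM, the gene model and the strand setting were not given in the sources used here, and the study's own DESeq2 tests were not used. FPKM removes depth and gene length, but these values did not follow each library's total of recovered reads. With 11850378 reads in mpEC replicate 2 and 11797709 in bmEC replicate 1, 1 read on 2000 bases was worth 0.0501 and 0.0608 FPKM. Scale factors from median ratios of genes between libraries were already 0.995 to 1.008. Whether an abundant transcript in 1 library lowers the values of others there was not tested. Groups were taken from the sample labels.

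Genes averaging 1 FPKM or more in the 6 libraries were tested on log2(FPKM + 1), a pseudocount of 1, with limma 3.58.1 in R 4.3.3, as bmEC minus mpEC, with moderated variances that follow a trend with expression and Benjamini-Hochberg adjustment over 11422 genes. All adjusted p-values are from this fit, two-sided, and errors are standard errors of the difference with n = 3 a group. Calls needed an adjusted p under 0.01 and a difference over 0.5 in size. Depth was recovered from the deposited FPKM with GENCODE gene lengths of GRCm38, which were at hand for 98.949% of tested genes. In each library 68.3 to 70.1% of values that came to at most 20 reads lay within 0.02 of a whole read, against 4% by chance, so these reads were used only as an alternative (limma-voom). Coordinates are from the same annotation, 1-based. The test was checked on simulated data with 200 of 11422 genes changed, in which 73% of changes of size 1 and 94% of those of size 2 were recovered, none with the wrong sign, and 1 of 11222 unchanged genes was called. The changed genes were drawn only from those averaging over about 5 FPKM on the log2 scale, so recovery below that level was not checked. Tables were handled with Python 3.11.15, pandas 2.3.3 and numpy 2.4.6, and plots drawn with matplotlib 3.10.9.

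The members and lists were chosen with earlier results of these data known, and lists and name families of genes were described only where at least 5 members were tested. Genes were named by rule: per direction the 15 largest differences at a mean of at least 5 FPKM and the 10 most abundant called genes, up to 4 called genes per direction and the most abundant uncalled gene of each list, and the markers of the regions. Stab2, Lama4, Lamb1, Col4a1, Col4a2, Mki67, Nr2f2, Osmr and Lifr were named outside it, after their values were seen. Alternatives changed the pseudocount, the filter, the scaling, the trend and the thresholds, left out each library, or used the replicate block or recovered reads. Scaling the recovered reads to their totals was added after the data were seen. Some genes of these lists are not reported here.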

Additional observations from a re-analysis of the deposited data

How the results depend on the processing

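In every alternative tried, no gene called there and in the fit given above changed direction. Leaving out 1 library gave 412 to 619 higher and 335 to 475 lower genes. Without a filter 478 were higher, and with a minimum mean of 5 FPKM 390 were lower. An adjusted p under 0.05 with no fold threshold gave 1481 higher and 1201 lower. Recovered reads scaled to total reads gave 492 and 1112, and these 492 shared 487 genes with the 744. The filter and the leave-one-out fits had fewer genes or samples by construction. Total read scaling changed only the library sizes used for the recovered reads. The cause of the other shifts was not tested. Of the 87 lists and families, 3 had medians over 0.5, against 9 at a minimum of 5 FPKM, 5 with limma-voom, and 3 to 5 without 1 library. Medians under -0.5 were in 10 lists, against 23 with total read scaling. Of 159 called genes that the text names, 136 were called in every alternative in which they were tested, and 15 lost their call without mpEC replicate 3. Genes averaging under 5 FPKM were not tested at that minimum. Fabp4, Il1b and Sepp1 lost it without a filter, and Bglap and Bglap2 only with recovered reads. Uncalled genes near 0 changed sign, with ranges of -0.211 to 0.0124 for Cdh5 (above 0 without mpEC replicate 2), -0.0799 to 0.0837 for Cd81 (above 0 without mpEC replicate 2 or bmEC replicate 3) and -0.115 to 0.118 for Gpihbp1 (below 0 without mpEC replicate 1 or bmEC replicate 2) when 1 library was left out, and Gpihbp1 at -0.24 after quantile normalization and -0.18 with total read scaling. A replicate block gave 835 higher and 712 lower genes. Deviations of libraries with the same number correlated at 0.31, 0.09 and 0.10, and those with different numbers at -0.21 to 0.12. The highest of the latter was between mpEC replicate 2 and bmEC replicate 3 (0.12). The labels do not say whether equal numbers mark the same mice, so the fit given above took no pairing. These correlations do not settle whether there was one. Depth limits genes near 1 FPKM most, where 1 read on 2000 bases is worth 0.0405 to 0.0608 FPKM.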

Other observations

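Several further groups were described by their counts. Of 66 genes of protein folding in the endoplasmic reticulum, 4 were higher (2 higher without mpEC replicate 1 or 3 or bmEC replicate 2) and none lower by limma (4 at an unadjusted p under 0.05, 0 by limma-voom, 1 with total read scaling). They included Xbp1, the transcription factor that expands the secretory pathway, at 301, 338 and 306 FPKM in mpECs and 819, 773 and 715 FPKM in bmECs, a difference of 1.29 ± 0.09 (adjusted p = 7.88e-05), while Hspa5, the main chaperone of that compartment, differed by 0.25 ± 0.09 and was not called (adjusted p = 0.0841). Of 26 ABC transporters, 4 were higher (2 higher without any 1 mpEC library or bmEC replicate 1 or 2) and none lower by limma (2 at an unadjusted p under 0.05, 1 by limma-voom), with the drug pump Abcb1b at 7.43, 8.03 and 6.95 FPKM in mpECs and 18.3, 17.6 and 13.6 FPKM in bmECs. Of 11 aldehyde dehydrogenases 2 were higher and none lower by limma (0 at an unadjusted p under 0.05, 0 by limma-voom), led by Aldh3b2 at 2.22 ± 0.18. In the insulin-like growth factor and insulin system, 4 of 13 were higher (1 higher without mpEC replicate 2 or any 1 bmEC library), among them the receptors Insr at 1.08 ± 0.18 and Igf1r at 0.80 ± 0.12 (both calls lost without mpEC replicate 2 or bmEC replicate 2 or 3, and that of Insr without bmEC replicate 1), and 2 lower (1 lower without mpEC replicate 2 or 3 or bmEC replicate 1 or 2). In the Wnt pathway, 3 of 15 were higher (1 higher without mpEC replicate 3 or bmEC replicate 1 or 2) and 2 lower (1 lower without mpEC replicate 2 or 3 or bmEC replicate 1 or 3), with Dkk2, a secreted ligand of Wnt co-receptors, at 3.77, 4.26 and 4.1 FPKM in mpECs and 0.461, 0.458 and 0.644 FPKM in bmECs and Tcf7l1, a transcription factor of the pathway, at 0.75 ± 0.08. Of 22 members of the tumour necrosis factor superfamily and its receptors, 3 were higher and 1 lower, with Tnfrsf25 at 1.93 ± 0.22 and Tnfrsf9 at 1.58 ± 0.21. Of 11 HOX genes 1 was higher, Hoxb5 at 1.11 ± 0.13, and none lower by limma (0 at an unadjusted p under 0.05, 0 by limma-voom).

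By annotated class, protein-coding genes held 10332 of the tested genes, with 6.87% higher and 5.41% lower in bmECs. Of 111 lincRNA genes, 9.01% were higher and 3.6% lower, and of 323 processed pseudogenes, 1.24% and 1.86%. By chromosome, the share of higher genes ran from 4.83% (chromosome 19) to 8.82% (chromosome 13), and the share of lower genes from 3.32% (chromosome 12) to 8.12% (chromosome 3), with medians between -0.03 and 0.05 on each chromosome.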
